A study of Homo sapiens with 12 samples.

Results

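The 8 genes described here encode receptors through which neurotrophic signals reach cells of the sympathetic lineage: the receptor tyrosine kinases ALK, LTK, NTRK2 (TRKB), NTRK3 (TRKC) and RET, the neurotrophin receptor NGFR (p75) and the RET co-receptors GFRA2 and GFRA3. They were chosen by name, 8 of the 43769 genes in the count table. Their mRNA was measured by RNA sequencing in 12 libraries of SK-N-DZ, a MYCN-amplified neuroblastoma cell line, 3 from each of 4 groups. All groups came from 1 clone that carries a doxycycline-inducible short hairpin RNA against ARID1A, a subunit of the SWI/SNF chromatin remodelling complex. Group C was untreated, D received doxycycline for 4 days, I received interferon gamma (IFNγ) for 24 hours, and DI received doxycycline for 4 days with IFNγ for 24 hours. The labels call the groups without doxycycline WT and those with it shARID1A. No group received doxycycline without the hairpin, so effects of the drug and of the hairpin cannot be told apart here.

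A receptor tyrosine kinase spans the cell membrane, is brought together in pairs by its ligand, and passes the signal on by adding phosphate to tyrosines on itself and on adaptor proteins, which feed the RAS-MAPK and PI3K pathways. RET does not bind its ligands alone: a GFRA protein held on the outer membrane by a lipid anchor binds a ligand of the GDNF family and presents it to RET. In neuroblastoma, ALK is known as an oncogene that can be activated by mutation, TRKB with its ligand BDNF has been tied to aggressive tumors, and RET is a marker of the adrenergic state.

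Libraries held between 16469832 and 21790869 counts, with a median of 19253482, and levels are given as CPM, a gene's counts per 1000000 counts of the TMM-scaled library. A floor of 3 counts equalled 0.135 to 0.187 CPM, and floors cover counting error only. Defining genes of the sympathoadrenal lineage were present, with 12 of 12 markers at a mean of at least 1 CPM, while 1 of 8 Schwann and neural crest markers and 0 of 6 leukocyte and blood markers reached that level. ARID1A mRNA, the target of the hairpin, was 183 ± 16.4 CPM in C and 171 ± 22.1 in D (SD, n = 3), and its log2 fold change of −0.092 did not pass the test (SE 0.11, adjusted p = 0.788, edgeR). It was 196 ± 5.72 CPM in I and 144 ± 9.69 in DI, a log2 fold change of −0.44 with adjusted p = 0.115, or 0.0111 with the replicate number as a block. The libraries labelled D therefore carry no clear drop of the target mRNA.

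Per length of exons, GFRA2 stood highest of the 8 genes and a set of 4 lay near the bottom. GFRA2 had a mean of 92.9 CPM per kb over the 12 libraries, with a range of 54.3 to 126. ALK followed with 18.3 CPM per kb (11.01 to 28.4) and RET with 13.2 (8.62 to 22.3), and these ranges overlapped. NTRK3 had 2.73 CPM per kb (0.785 to 5.37), below every value of RET. The other 4 genes were low, with means of 0.551 for NGFR, 0.441 for GFRA3, 0.311 for LTK and 0.277 for NTRK2, and each overlapped its neighbour in this order, as NGFR did with NTRK3. Exon lengths were the union of all annotated exons, 26750 bp for NTRK3 and 20363 bp for NTRK2 against 2039 bp for GFRA3, so values per kb of the long genes are low where long exons of rarer transcripts go unused.

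In all, no receptor gene passed the test in the fit without a block, and 4 of them passed in 1 or more comparisons once libraries of the same replicate number were compared. NTRK3 and GFRA2 were higher with doxycycline both without and with IFNγ, NTRK2 was higher with doxycycline under IFNγ, and ALK was higher with IFNγ alone. Replicate numbers shared between groups carried a large part of the variation, as shown further down, so values are given with the replicate number as a block wherever that changed a call. A gene was called when its edgeR p, adjusted by the Benjamini-Hochberg method over 15828 tested genes, was under 0.05, and all 8 genes passed the filter on low counts. Without the block, 0 of 8 genes were called in each of the 4 comparisons and in the interaction, 0 had an unadjusted p under 0.05, and DESeq2 also called 0, with GFRA2 in DI vs I at an unadjusted p of 0.0384. Among all tested genes the same fit called 1.23% in D vs C, 0.67% in DI vs I, 2.21% in I vs C and 1.72% in DI vs D. With the block, 2 of 8 genes were called in D vs C where 13.9% of all genes were, 3 of 8 in DI vs I against 10.5%, 1 of 8 in I vs C against 6.02%, and 0 of 8 in DI vs D against 4.46%. For the interaction, 0% of genes were called without the block and 0% with it, with 99 and 374 genes at an unadjusted p under 0.05.

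**Figure D1:**
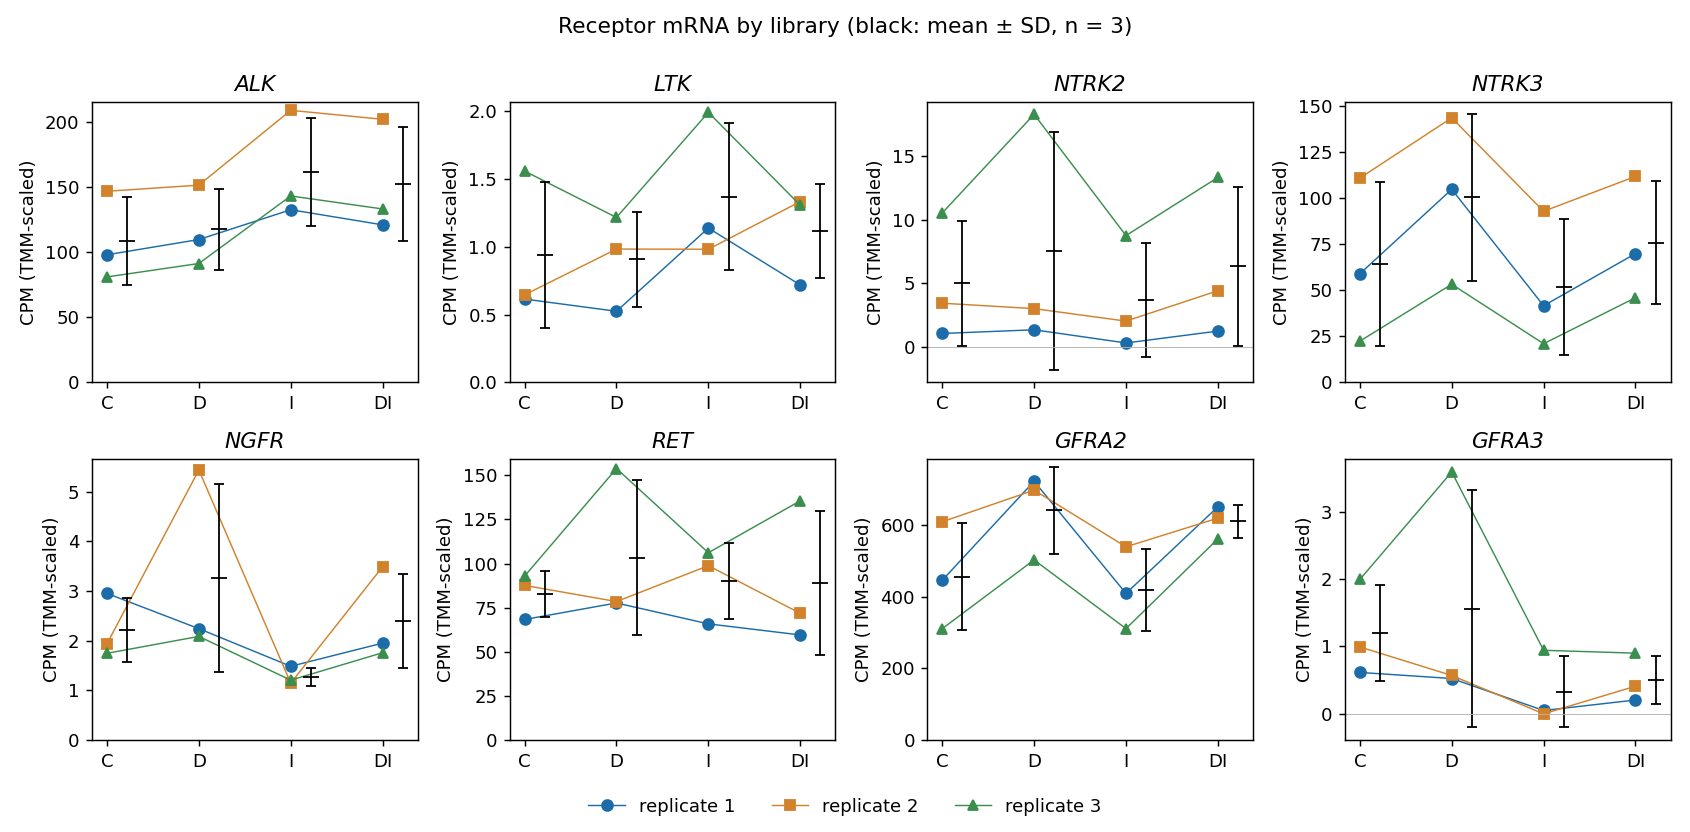
CPM (TMM-scaled, linear axis) of each receptor gene in the 12 libraries, by group on the horizontal axis, with points of one replicate number joined by a line and the group mean ± SD (n = 3) in black. The lines of NTRK2 and NTRK3 keep their order in all 4 groups, GFRA2 and NTRK3 are higher in D than in C in each replicate number, and ALK is higher in I than in C in each.

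ALK is the receptor of the ligands ALKAL1 and ALKAL2 (chr2:29192774-29921566, minus strand, GRCh38). In the order of replicates 1 to 3, ALK stood at 98.1, 147 and 81.1 CPM in the C libraries, at 109.8, 152 and 91.4 in the D libraries, at 133, 209 and 143 in the I libraries and at 121, 202 and 133 in the DI libraries. Replicate 2 was the highest library of every group, and the groups overlapped in every comparison. From C to I, the mean went from 109 ± 34.2 to 162 ± 41.4 CPM (SD, n = 3), with I above C in 3 of 3 replicate numbers. The log2 fold change was 0.57 without the block (SE 0.29, adjusted p = 0.721, edgeR) and 0.59 with it (SE 0.092, adjusted p = 0.00273). With the block it stayed called without replicate 1 (adjusted p = 0.0261) and without replicate 2 (0.00369), but not without replicate 3 (0.46, adjusted p = 0.0685). Over all genes, these fits called 345, 984 and 425 in I vs C, against 953 with every replicate. Under doxycycline, DI was also above D in 3 of 3 replicate numbers, with a blocked log2 fold change of 0.37 and an adjusted p of 0.0503, which did not pass. Doxycycline itself gave ALK blocked log2 fold changes of 0.13 in D vs C (95% confidence interval −0.078 to 0.33) and −0.094 in DI vs I (−0.30 to 0.11), neither of which passed.

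The sum of mesenchymal markers, made up mostly of 1 gene, moved with IFNγ. The summed level of the 8 mesenchymal markers was 608 to 946 CPM in C and 2005 to 3492 in I, and 813 to 1356 in D against 1469 to 2978 in DI, with 7 of 8 at a mean of at least 1 CPM. Most of this sum was FN1, fibronectin, with a mean of 1517 CPM over the 12 libraries, while PRRX1, a transcription factor of the mesenchymal state, had 0.864. FN1 ran from 379 to 3330 CPM over the libraries, whereas TWIST1 of the same list stayed within 92.9 to 157 CPM. The sum therefore does not show that the markers moved together. The part of these markers in the ALK difference was not tested. In bulk RNA, a change in the number of cells of a type and a change in RNA per cell cannot be told apart.

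The promoter at the 5′ end of the ALK gene is shown because ALK was the receptor gene called with IFNγ. The set of RefSeq promoters (GRCh38.p14) used here held 11 for 6 of the 8 genes, each from 250 bases before to 50 after a transcription start. This set held none for NGFR and GFRA2, which are only named. The 250 bases before the start of ALK, at chr2:29921587-29921836 on the minus strand, held GC boxes (GGGCGG, either strand), in capitals below, and a shorter stretch of 30 bases, chr2:29223923-29223952, from a second ALK promoter held an E-box (CACGTG), the core motif of MYC-family proteins, 117 bases before that start.
ALK promoter: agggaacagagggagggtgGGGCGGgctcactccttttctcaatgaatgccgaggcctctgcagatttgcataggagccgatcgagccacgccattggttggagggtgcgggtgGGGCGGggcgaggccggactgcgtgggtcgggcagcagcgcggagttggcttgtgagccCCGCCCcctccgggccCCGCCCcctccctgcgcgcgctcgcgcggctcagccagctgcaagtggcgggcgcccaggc
ALK E-box: ccctccctcgttCACGTGgggttatacttg
A GC box was found in 45.0% of 35116 RefSeq promoters and in 7 of these 11, and an E-box in 7.26% and in 1 of the 11. The gamma-activated site TTCNNNGAA, a motif known from promoters that respond to IFNγ, was in 7.66% of all promoters and in 0 of the 11. The AP-1 site TGANTCA was in 7.71% and in 0 of the 11. Both strands were searched, and matches to different motifs did not overlap in the printed sequences. Such a match is a description of letters in a window.

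LTK, the close relative of ALK that shares its ligands (chr15:41503638-41513887, minus strand), was near the limit of the assay, with 10 to 38 counts per library. Untreated libraries averaged 0.939 ± 0.536 CPM, D libraries 0.908 ± 0.352, I libraries 1.37 ± 0.543 and DI libraries 1.12 ± 0.347 (SD, n = 3). I was above C in 3 of 3 replicate numbers, with a log2 fold change of 0.55 (95% confidence interval −0.57 to 1.66) without the block and 0.60 (−0.20 to 1.399) with it, neither of which passed the test.

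NTRK3, the receptor of neurotrophin 3 (chr15:87859751-88256768, minus strand), was among the genes that were higher with doxycycline. Control replicates 1 to 3 had 59.0, 111 and 22.4 CPM, those of D had 105, 144 and 53.3, those of I had 41.6, 92.9 and 21.0, and those of DI had 69.9, 112 and 46.0. Each doxycycline library was above its partner of the same number, yet the groups overlapped because replicate 2 was 2.43 to 4.96 times replicate 3 in every group. The log2 fold change in D vs C was 0.65 without the block (SE 0.63, adjusted p = 0.722, edgeR) and 0.80 with it (SE 0.18, adjusted p = 0.0171). Under IFNγ it was 0.55 without the block (SE 0.63, adjusted p = 0.824) and 0.71 with it (SE 0.18, adjusted p = 0.0335). Both blocked calls were lost without replicate 1 or replicate 3. In D vs C the value was 0.78 without replicate 1 (adjusted p = 0.185), 1.00 without replicate 2 (0.00047) and 0.60 without replicate 3 (0.121). In DI vs I it was 0.69 without replicate 1 (adjusted p = 0.236), 0.95 without replicate 2 (0.000788) and 0.51 without replicate 3 (0.224). Over all genes, the blocked fit called 2200 in D vs C, and 251, 3521 and 222 without replicates 1, 2 and 3. In DI vs I it called 1658, and 185, 3242 and 108 in the same order. IFNγ gave blocked values of −0.30 in I vs C and −0.38 in DI vs D, which did not pass (adjusted p = 0.454 and 0.363).

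The NTRK3 promoter is shown for comparison with that of ALK, at chr15:88256740-88256989 on the minus strand, with GC boxes in capitals. Neither the E-box, the gamma-activated site, the interferon-stimulated response element core nor the AP-1 site was found in this window.
NTRK3 promoter: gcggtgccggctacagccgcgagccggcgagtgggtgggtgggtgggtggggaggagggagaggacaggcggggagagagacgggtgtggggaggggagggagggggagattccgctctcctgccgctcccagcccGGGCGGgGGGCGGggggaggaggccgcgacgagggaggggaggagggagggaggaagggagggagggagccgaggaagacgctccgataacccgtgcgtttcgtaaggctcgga
Counts per gene add up all transcripts, 21 of them annotated for NTRK3 and 8 for NTRK2, so forms with and without the kinase domain were not separated. The long noncoding RNA NTRK3-AS1 lies on the opposite strand within NTRK3, and whether counting used strand is not given in the sources used here.

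NTRK2, the receptor of BDNF and neurotrophin 4 (chr9:84668551-85027070, plus strand), ranged over 61.6-fold between libraries, from 0.297 to 18.3 CPM or from 6 to 316 counts. NTRK2 in the C replicates 1 to 3 was 1.04, 3.43 and 10.5 CPM, in the D replicates 1.33, 3.00 and 18.3, in the I replicates 0.297, 2.02 and 8.75, and in the DI replicates 1.23, 4.41 and 13.3. Replicate 3 was 10.1 to 29.5 times replicate 1 in every group, and groups overlapped throughout. Comparing DI with I, the log2 fold change was 0.78 without the block (SE 1.27, adjusted p = 0.89, edgeR) and 1.04 with it (SE 0.28, adjusted p = 0.0414), with DI above I in 3 of 3 replicate numbers. This call was lost without replicate 1 (adjusted p = 0.21), without replicate 2 (0.0507) and without replicate 3 (0.209), where values ran from 0.85 to 1.43. Over all genes, these fits called 185, 3242 and 108 in DI vs I, against 1658 with every replicate. The blocked value in D vs C was 0.37 (95% confidence interval −0.24 to 0.98) and did not pass, and the difference between the 2 doxycycline comparisons, tested as the interaction, was 0.67 (adjusted p = 1). A stretch of 30 bases at the first NTRK2 promoter, chr9:84669309-84669338 on the plus strand, is shown because it held the 1 match among the 11 promoters to the core of the interferon-stimulated response element (GAAANNGAAA, either strand), which occurred in 3.57% of all promoters.
NTRK2 ISRE core: ccaagcacggTTTCCATTTCaaaaagggag
The match lay 13 bases after the start. NTRK2 itself was lower in I than in C in 3 of 3 replicate numbers, with a blocked log2 fold change of −0.71 that did not pass (SE 0.28, adjusted p = 0.215, edgeR).

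NGFR encodes p75, which binds all neurotrophins with low affinity and can act with or without TRK receptors (chr17:49495293-49515017, plus strand). The C replicates 1 to 3 held 2.95, 1.94 and 1.75 CPM, the D replicates 2.24, 5.43 and 2.08, the I replicates 1.48, 1.15 and 1.21, and the DI replicates 1.95, 3.49 and 1.76. The 3 libraries of I, with 21 to 30 counts each, were all below those of C and of DI on the CPM scale. Set against I, DI had a log2 fold change of 0.90 (SE 0.44, adjusted p = 0.451, edgeR), or 0.84 with the block (SE 0.38, adjusted p = 0.184). In I vs C it was −0.79 (SE 0.44, adjusted p = 0.82), or −0.77 with the block (adjusted p = 0.328). An exact two-sided permutation test of the 3 libraries against 3 gave p = 0.1 for both comparisons, the smallest it can give, so this test could not pass at 0.05 in a design of this size.

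RET, the kinase of the GDNF family receptors (chr10:43077027-43130351, plus strand), was present at 59.5 to 154 CPM. Its values in replicates 1 to 3 were 68.3, 87.6 and 92.9 CPM for C, 77.7, 78.5 and 154 for D, 65.8, 98.8 and 106 for I, and 59.5, 71.8 and 135 for DI. Replicate 3 was the highest library of every group and replicate 1 the lowest. The mean was 82.9 ± 12.9 CPM for C, 103 ± 43.7 for D, 90.2 ± 21.5 for I and 88.9 ± 40.8 for DI (SD, n = 3), and the differences between means were smaller than the SD of at least 1 of the groups compared. Blocked log2 fold changes ran from −0.23 in DI vs D to 0.25 in D vs C, with no call. The D vs C difference was called in the blocked fit without replicate 2 (0.44, adjusted p = 0.0377, edgeR). That fit called 3521 of all genes in D vs C, against 2200 with every replicate.

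GFRA2, the co-receptor that presents neurturin to RET (chr8:21690403-21812357, minus strand), was the most abundant receptor gene and was higher with doxycycline. Untreated replicates 1 to 3 had 446, 609 and 311 CPM, against 722, 697 and 502 with doxycycline, 409, 539 and 311 with IFNγ, and 651, 619 and 561 with both. Every DI library was above every I library, while D and C overlapped through the second control replicate. The mean went from 455 ± 149 to 640.4 ± 120.1 CPM without IFNγ and from 419.5 ± 114 to 610.2 ± 45.4 with it (SD, n = 3), with doxycycline above its partner in 3 of 3 replicate numbers both times. The log2 fold change in D vs C was 0.49 without the block (SE 0.25, adjusted p = 0.419, edgeR) and 0.52 with it (SE 0.13, adjusted p = 0.0285). Under IFNγ it was 0.54 without the block (SE 0.25, adjusted p = 0.426) and 0.58 with it (SE 0.13, adjusted p = 0.0233). As for NTRK3, the blocked calls were lost without replicate 1 (adjusted p = 0.286 and 0.222) and without replicate 3 (0.19 and 0.243), with values from 0.43 to 0.54, and kept without replicate 2 (0.000369 and 0.000174). Calls over all genes also dropped without replicate 1 or 3 and rose without replicate 2, as given for NTRK3. IFNγ gave GFRA2 blocked log2 fold changes of −0.11 in I vs C (95% confidence interval −0.40 to 0.19) and −0.045 in DI vs D (−0.34 to 0.25), neither of which passed.

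Among other cell types, the summed level of the 8 Schwann and neural crest markers moved with doxycycline, from 5.10 to 7.36 CPM in C to 2.34 to 3.53 in D, and from 5.84 to 11.1 in I to 3.13 to 6.76 in DI. SOX10, which defines these cells, reached at most 0.155 CPM. The part of these genes in the NTRK3, NTRK2 and GFRA2 differences was not tested.

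GFRA3, the co-receptor for artemin (chr5:138252379-138274671, minus strand), was close to the floor. Values in replicates 1 to 3 were 0.615, 0.993 and 1.99 CPM for C, 0.524, 0.569 and 3.59 for D, 0.0495, 0 and 0.943 for I, and 0.205, 0.41 and 0.901 for DI. Replicates 1 and 2 of I held 1 and 0 counts, under the floor of 3. I was below C in 3 of 3 replicate numbers and DI below D in 3 of 3, but the blocked log2 fold changes of −2.36 (SE 0.67, adjusted p = 0.0736, edgeR) and −1.35 (SE 0.62, adjusted p = 0.356) did not pass. Without the block they were −1.84 and −1.60.

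**Figure D2:**
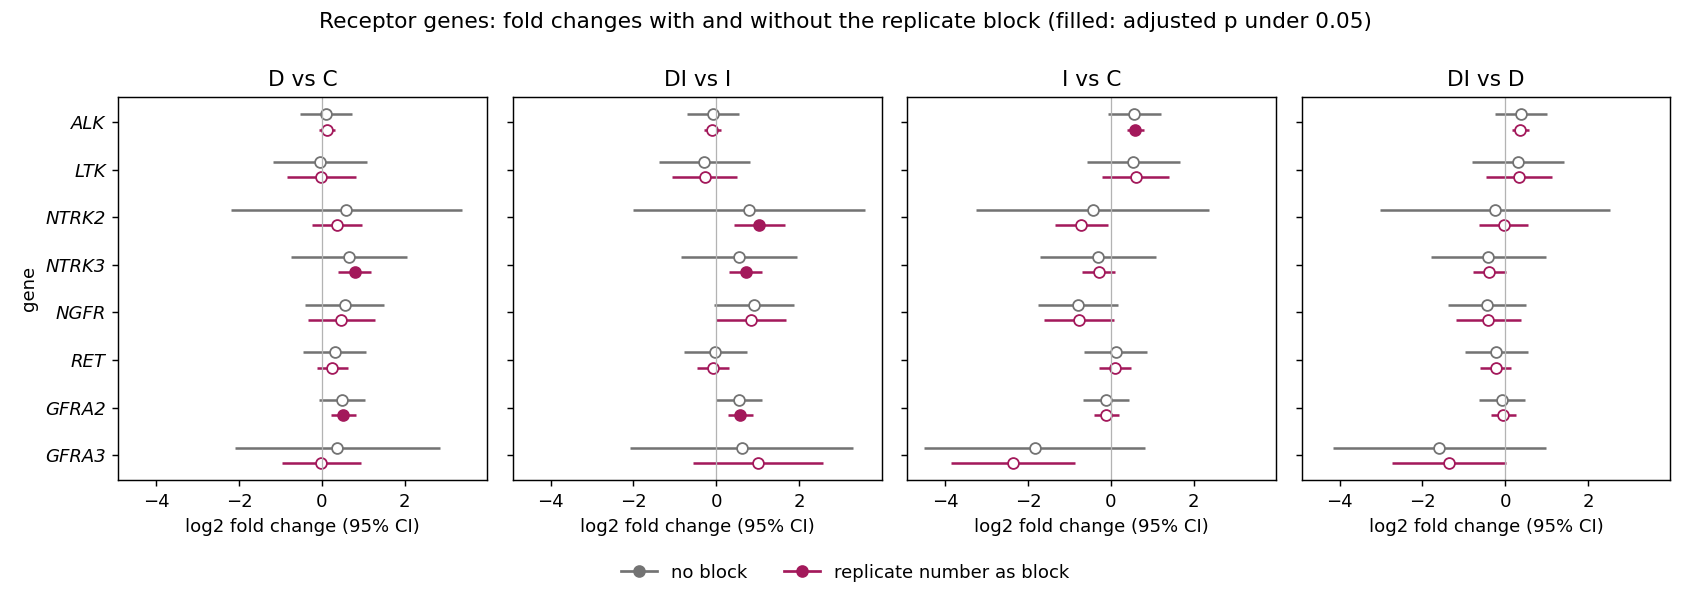
Log2 fold change (horizontal axis) of each receptor gene in 4 comparisons, with its 95% confidence interval, from the edgeR fit without a block (grey) and with the replicate number as a block (purple), where filled points had an adjusted p under 0.05. Filled points are NTRK3 and GFRA2 in D vs C, NTRK2, NTRK3 and GFRA2 in DI vs I, and ALK in I vs C, all in the blocked fit.

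The spread that the block removed was large for most of these genes. Over the 12 libraries, the replicate number took 88.6% of the variance of log2 CPM in NTRK2, 72.8% in RET, 71.5% in NTRK3, 59.6% in LTK and 58.3% in ALK, with a median of 36.0% over all tested genes. It took less in GFRA3 (48.0%), GFRA2 (39.0%) and NGFR (17.1%). Doxycycline took its largest shares in GFRA2 (47.8%), NGFR (27.9%) and NTRK3 (19.6%), against a median of 12.2% over all tested genes. The share of IFNγ was 35.4% in ALK and 35.4% in GFRA3, with 20.8% in NGFR and a median of 4.81% over all tested genes. In 3 of 8 genes the replicates stood in the same order in all 4 groups, as they did in 13.8% of all tested genes. In NTRK2 and RET that order put replicate 3 highest and replicate 1 lowest, whereas in NTRK3 replicate 2 was highest and replicate 3 lowest. The labels do not say what a replicate number marks.

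**Figure D3:**
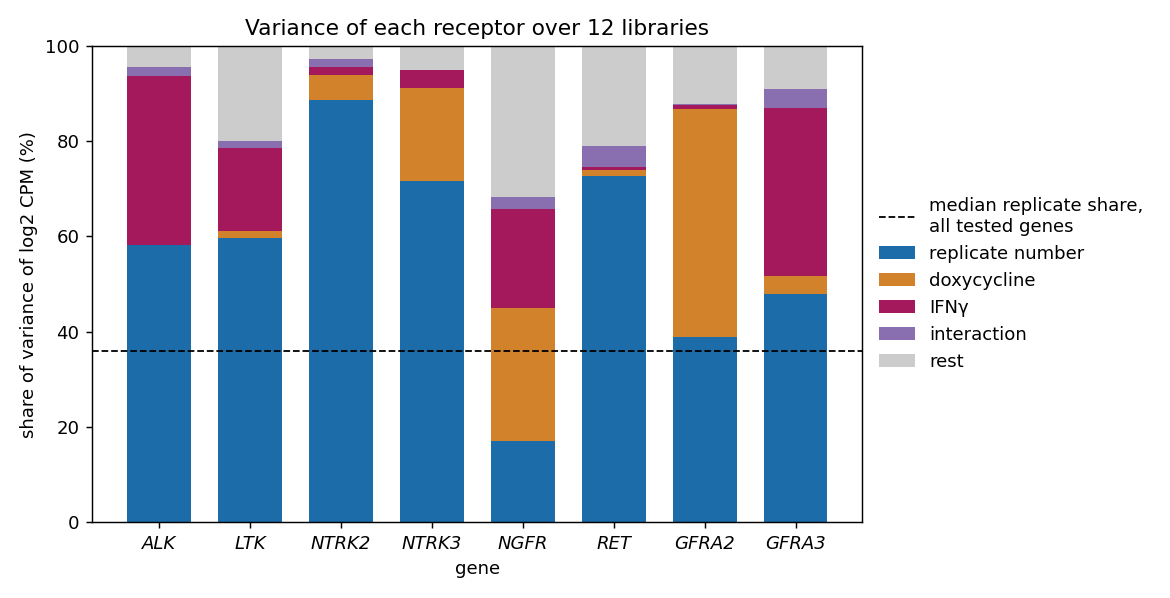
Share of the variance of log2 CPM over 12 libraries (%, vertical axis) taken by the replicate number, doxycycline, IFNγ, their interaction and the rest, for each receptor gene, with the median replicate share of all tested genes (36.0%) as a dashed line. The replicate number takes 88.6% in NTRK2 and 17.1% in NGFR, and doxycycline takes 47.8% in GFRA2.

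Ligands were mostly low in these cells. Of 13 ligands of these receptors, 7 passed the filter and 5 had a mean of at least 1 CPM. MDK, the growth factor midkine and a reported ligand of ALK, led with a mean of 1472 CPM, followed by its relative pleiotrophin (PTN) with 19.7 CPM and BDNF with 13.2. The neurotrophin genes NTF3 and NTF4 had 0 counts in every library. ALKAL2, a ligand of ALK and LTK, had at most 13 counts, and GDNF at most 2. Without the block 0 of 7 tested ligands were called in any of the 4 comparisons by edgeR. BDNF was lower in the doxycycline library of 3 of 3 replicate numbers, without and with IFNγ alike, with blocked log2 fold changes of −0.49 and −0.58 that did not pass (adjusted p = 0.119 and 0.0868). It was also lower with IFNγ in 3 of 3 replicate numbers of both comparisons, with blocked values of −0.50 in I vs C and −0.60 in DI vs D that did not pass (adjusted p = 0.197 and 0.159). With the block 1 of 7 ligands was called in D vs C, close to the 13.9% of all tested genes. It was GDF15, a stress-induced ligand of the RET co-receptor GFRAL. Its mean was 0.314 CPM in C and 4.19 in D, a log2 fold change of 3.19 (SE 0.87, adjusted p = 0.0356), with replicate values of 2.57, 0.776 and 9.21 CPM in D.

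Partners of these receptors that were higher with IFNγ included a syndecan and a RET co-receptor. With the block, 3 of 13 tested partners rose and 1 fell in I vs C, beside 6.02% of all tested genes called. In DI vs D, 3 rose and 0 fell, beside 4.46%. The partner that fell was another syndecan, SDC1, with a log2 fold change of −0.46 (adjusted p = 0.0467, edgeR). SDC3, a syndecan that binds pleiotrophin, rose from 50.6 ± 9.12 to 141 ± 36.6 CPM in I vs C (SD, n = 3). Without the block its log2 fold change was 1.48 in I vs C (adjusted p = 0.00412, edgeR) and 1.24 in DI vs D (adjusted p = 0.0159). GFRA1, the co-receptor for GDNF, had 19.3 ± 12.7 CPM in C and 85.5 ± 30.01 in I, and neither IFNγ comparison had overlapping groups. Its log2 fold change was 2.14 in I vs C and 2.28 in DI vs D without the block, which did not pass (adjusted p = 0.195 and 0.185, edgeR), and 2.29 and 2.58 with it, which did (adjusted p = 0.00392 and 0.0024). The sum of mesenchymal markers, mostly FN1, moved with IFNγ as given above, and the part of these markers was not tested here either.

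Signal adaptors and output genes were called in few cases without the block. Of 27 tested adaptors and relays and 17 tested genes of MAPK output and feedback, 1 was called without the block, VGF in D vs C. VGF, a secreted neuropeptide precursor known as a target of neurotrophin signaling, rose from 14.8 ± 2.01 CPM in C to 33.4 ± 4.02 in D (SD, n = 3), a log2 fold change of 1.18 (SE 0.19, adjusted p = 0.0177, edgeR), and had 0.39 in DI vs I, which did not pass (adjusted p = 0.45). Of 11 tested genes of receptor processing and turnover, 1 was called, CBL, a ubiquitin ligase that marks active receptors for breakdown. CBL rose from 63.4 ± 5.81 to 94.8 ± 5.80 CPM in D vs C, a log2 fold change of 0.58 (SE 0.11, adjusted p = 0.038), and in the blocked fit CBL also rose by 0.42 under IFNγ (adjusted p = 0.0113). With the block, 5 of 27 adaptors and relays rose and 3 fell in D vs C, beside 13.9% of all tested genes called. In DI vs I, 1 rose and 4 fell, beside 10.5%, and in I vs C 4 rose and 0 fell, beside 6.02%. SH2B3, an adaptor that restrains kinase signaling, rose by 1.29 in D vs C (adjusted p = 0.026) and 1.63 in I vs C (0.0117). DOK1, a docking protein that dampens RAS signaling, fell by 0.57 on the log2 scale in D vs C (adjusted p = 0.00554) and by 0.50 in DI vs I (0.0122). Of the 17 MAPK genes, 3 rose and 1 fell in D vs C with the block, again beside 13.9% of all tested genes, ETV4 most with 2.92 (adjusted p = 0.0333) from 0.202 to 1.53 CPM, and 0 were called in the other 3 comparisons.

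**Figure D4:**
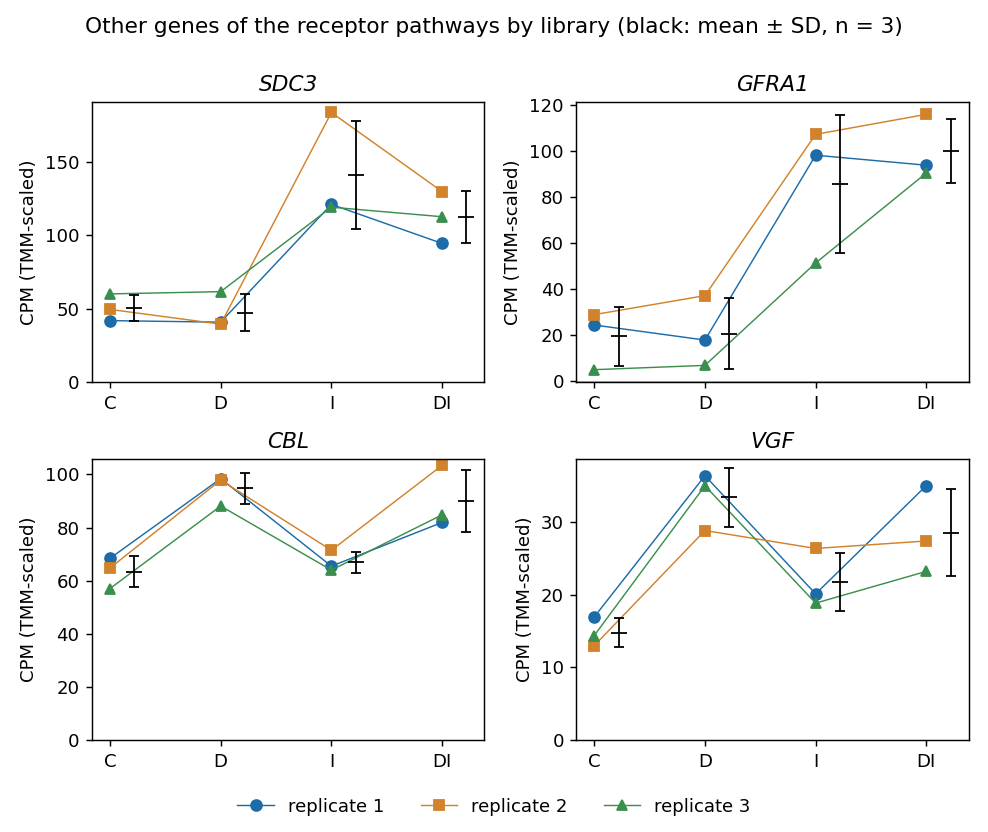
CPM (TMM-scaled, linear axis) of 4 other genes of the receptor pathways in the 12 libraries, by group on the horizontal axis, with points of one replicate number joined by a line and the group mean ± SD (n = 3) in black. SDC3 and GFRA1 sit higher in I and DI than in C and D, and CBL is higher in D (88.1 to 98.4 CPM) than in C (57.0 to 68.4).

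Over the 8 genes as a list, the median of the log2 fold changes was 0.43 for D vs C and 0.55 for DI vs I without the block, beside medians of −0.0012 and −0.0068 over all tested genes. In I vs C the median was −0.21 and in DI vs D −0.23, beside −0.0081 and −0.012. The comparisons D vs C and I vs C share the control libraries, and DI vs I and DI vs D share those of DI. The I libraries enter DI vs I and I vs C with opposite sign, as the D libraries do in D vs C and DI vs D. The medians of opposite sign are therefore not independent of each other. Apart from the members themselves, the genes whose pattern over the 12 libraries was nearest to each were found by the root mean square difference of centred log2 CPM, for the 7 receptor genes with a mean of at least 1 CPM. GFRA2 was nearest to the pseudogene TPTE2P5 (0.12) and to FRMD4A (0.12), and ALK to the adherens junction gene CTNNA1 (0.15) and to LRATD1 (0.16). For NTRK3 they were SHANK2 (0.21) and TRMT9B (0.23), for RET RAB3IP (0.19) and CSTF2T (0.20), and for LTK SMIM45 (0.18) and NQO2 (0.20). NGFR was nearest to FAM157A (0.25) and HSF4 (0.27), and NTRK2 less near to any gene, with CD200 at 0.53 and CLSTN2 at 0.80. Between each receptor and all tested genes the median difference ran from 0.50 for RET to 1.63 for NTRK2.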

How the data were processed

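RNA of 12 SK-N-DZ libraries was sequenced as paired 150-base reads per the labels. The authors deposited raw counts per gene, and the aligner, counting tool and genome build are not given in the sources used here. Their own comparison tables hold fold changes and p-values of their DESeq2 analysis and another 18 per-library columns under names the labels do not explain, and were not used. GENCODE release 29 (GRCh38) held all 43769 identifiers of the table and gave positions and lengths. Library sizes were scaled by TMM, and genes were filtered by filterByExpr (minimum count 10) and tested in one two-sided quasi-likelihood fit of the 4 group means (edgeR 4.0.16, limma 3.58.1, R 4.3.3), with DESeq2 1.42.0 as an alternative and Python 3.11.15 for sequences. The code was first tested on simulated data.

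Replicate numbers come from the labels, which do not say that replicates were separate cultures, so p-values may measure technical spread. After removal of group means, the 18 pairs of libraries sharing a number correlated at 0.338 to 0.804 and the 36 pairs that did not at −0.628 to 0.143, so the numbers pair the libraries and blocked values are printed. The chi-square per gene between replicates of a group was 18.4 to 78.6, so none is a repeat deposit. The alternatives were the scaling, the filter, the libraries in the fit, DESeq2, the block and leaving out each library. The genes named are the 8 receptors, genes of each pathway list called without the block (at most 4 a list and comparison, by size), the 3 most abundant ligands, ARID1A and the 2 nearest genes in pattern to each receptor. Pathway genes named from the blocked fit alone are only a part of those called there, and not always the largest. The low ligands and single marker genes were named after their values were seen. Members and lists were chosen with earlier results of these data known. Some genes of these lists are not reported here.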

Additional observations from a re-analysis of the deposited data

Results flagged for a closer look

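ALK differed in direction between the 2 doxycycline comparisons. On the log2 CPM scale its mean difference was 0.13 without IFNγ (D vs C) and −0.095 under it (DI vs I), a gap of −0.22, with every replicate number higher in D than in C and every one lower in DI than in I. The test of the gap itself, the interaction in edgeR, gave −0.20 without the block and −0.22 with it, and did not pass (adjusted p = 1 both times).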

How the results depend on the processing

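No receptor gene was called under DESeq2, DESeq2's size factors, library size alone, no filter, the libraries of the compared groups alone, or with any single library left out. GFRA3 was not tested in DI vs I on those 6 libraries alone. Over all genes, DESeq2 called 650 (D vs C), 471 (DI vs I), 529 (I vs C) and 405 (DI vs D). The libraries of the compared groups alone gave 16, 0, 332 and 207 calls in the same order. The 0 receptor genes of that fit in DI vs I therefore do not set receptors apart. With 1 library left out, calls fell as low as 42 for D vs C and 35 for DI vs I, against 194 and 106 with every library. The block (18 same-number pairs) gave 2 called receptor genes in D vs C, 3 in DI vs I and 1 in I vs C. An alternative chosen after seeing the data was the block without 1 replicate number. Without replicate 2 it gave 3 in D vs C and 2 under IFNγ (DI vs I). It gave 1 in I vs C without replicate 1 or 2, and 0 in all other cases. Over all genes, calls in D vs C went from 2200 with every replicate to 3521 without replicate 2. They were 251 and 222 without replicates 1 and 3. For DI vs I the calls went from 1658 to 3242, and were 185 and 108 without replicates 1 and 3. The 0 receptor genes without replicate 1 or 3 in these comparisons thus came with fewer calls over all genes. Signs turned with library size alone for LTK in D vs C (0.045), ALK in DI vs I (0.0066) and RET in DI vs I (0.074), and with the block for GFRA3 in D vs C (−0.010). In the block without one number they turned for LTK in D vs C (0.081 and 0.22), NGFR and GFRA3 in D vs C (−0.11 and −0.53), RET in DI vs I (0.13), and GFRA2 (0.010 and 0.020) and NTRK2 (0.24) in DI vs D. The causes were not tested.

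Leaving out single libraries turned the sign of 31 of 192 estimates, each for 1 gene in 1 comparison. Estimates from the same fit share libraries and are not independent. In D vs C, log2 fold changes ran from −0.11 to 0.38 for ALK, −0.31 to 0.52 for LTK, −0.031 to 0.81 for NGFR, −1.21 to 1.74 for NTRK2, −0.089 to 0.48 for RET and −1.13 to 0.94 for GFRA3. In DI vs I they ran from −0.35 to 0.14 for ALK, −0.48 to 0.095 for LTK, −0.39 to 2.47 for NTRK2, −0.46 to 0.20 for RET and −0.10 to 4.01 for GFRA3. In I vs C they ran from −2.13 to 0.71 for NTRK2, −1.03 to 0.34 for NTRK3, −0.024 to 0.30 for RET and −0.34 to 0.14 for GFRA2. In DI vs D they ran from −1.41 to 1.55 for NTRK2, −0.81 to 0.15 for NGFR, −0.65 to 0.19 for RET and −0.22 to 0.026 for GFRA2. NTRK3 and GFRA2 stayed higher with doxycycline in every fit run, as did ALK with IFNγ, but their sizes moved by over 1.5 times with single libraries, except for GFRA2 in DI vs I. For D vs C, NTRK3 ran from 0.24 to 1.30 and GFRA2 from 0.28 to 0.75. For DI vs I, NTRK3 ran from 0.16 to 1.28 and GFRA2 from 0.38 to 0.76. With IFNγ, ALK ran from 0.34 to 0.85 in I vs C and 0.11 to 0.60 in DI vs D. GFRA3 in I vs C ran from −5.24 to −1.27. Signs also held in every fit run for results that were not called. Among these were NGFR in DI vs I and I vs C, and LTK and GFRA3 in I vs C and DI vs D. LTK and GFRA3, with at most 38 and 62 counts a library, have the least depth behind their values.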

Other observations

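Other receptor tyrosine kinases also moved with IFNγ in the fit with the replicate number as a block, where 6 of 36 tested rose and 2 fell in I vs C, beside 6.02% of all tested genes called, and 3 rose and 1 fell in DI vs D, beside 4.46% (edgeR). Not every gene in these counts is reported here. MST1R, the receptor of macrophage-stimulating protein, rose by 2.42 on the log2 scale in I vs C (adjusted p = 0.00416), from 1.96 to 10.4 CPM, and by 2.06 in DI vs D (0.0157). PDGFRB, a platelet-derived growth factor receptor, rose by 0.91 in I vs C (adjusted p = 0.00212) and by 0.84 in DI vs D (0.00476). FGFR2, a fibroblast growth factor receptor, fell by 0.66 in I vs C (adjusted p = 0.0124) and by 0.71 in DI vs D (0.0111). With doxycycline, 4 of 36 rose and 1 fell in D vs C in the same fit, beside 13.9% of all tested genes called. In DI vs I, 0 rose and 1 fell, beside 10.5%. Those that rose in D vs C included LMTK2 by 0.49 (adjusted p = 0.0163) and DDR2 by 0.38 (0.0241). DDR2 was also among those that rose with IFNγ, by 0.61 in I vs C (adjusted p = 0.0025), but was not called in DI vs D. The kinase that fell with doxycycline was EPHB2, an ephrin receptor, by 0.36 in D vs C (adjusted p = 0.00661) and by 0.46 in DI vs I (0.00221).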
